A study of Mus musculus with 6 samples.

Results

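Prss56, Cldn2 and 9130227L01Rik are the 3 genes described here. They were chosen by their log2 fold change between light and control, as 3 of the 4 genes called lower. The other, Mir96, fell further. The 3 genes are followed across the 6 libraries to see how far each returned with minocycline. Each is 1 row of a table of counts for 23420 genes, so the group is 3 of 23420 genes. All 6 libraries were made from mouse retina, and the labels give the strain CD1 for each group. The 2 control libraries came from untreated mice, and the 2 light libraries from mice exposed to 10000 lux for 1 h and examined 4 days later. The 2 minocycline libraries came from mice given the same light and, in addition, minocycline at 45 mg/kg once a day for 4 days by injection into the abdomen. The paper's methods describe young adult albino BALB/cJ mice of both sexes, dark adaptation and dilated pupils before the exposure, brighter light and a minocycline course begun before the light, so the strain, the intensity and the schedule are not settled by the sources. The labels give no age and name no group injected with vehicle, so the drug and the injections cannot be told apart. Since the minocycline columns bear 1 shared header, the names minocycline A and minocycline B used here carry no replicate number.

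Prss56 encodes a trypsin-like serine protease that in the adult mouse retina is made by Müller glia, the radial support cells of the retina. Mutations of the human gene cause very small eyes, and the enzyme is known for its part in setting the length of the eye. Cldn2 encodes claudin-2, a tight junction protein that forms pores for small cations and water between the cells of leaky epithelia such as the choroid plexus and the proximal tubule of the kidney. 9130227L01Rik is a long noncoding RNA gene that remains uncharacterised.

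In the GRCm38 annotation the 3 genes lie apart, all on the forward strand. Prss56 is a protein coding gene on chromosome 1 from 87183313 to 87188405, with 13 exons once overlapping exons are merged and 2180 exon bases. Cldn2 is a protein coding gene on chromosome X from 139800828 to 139811386, with 4 merged exons and 3325 exon bases. 9130227L01Rik is annotated as a lincRNA on chromosome 1 from 55931241 to 55972328, with 7 merged exons and 2345 exon bases. A gene of unresolved status on the opposite strand, Gm36986, overlaps 9130227L01Rik. It has no row in the table, and it is not given whether counting used the strand, so reads of these genes cannot be told apart.

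The promoters are shown because the genes moved together after light and share no neighbourhood. Each sequence runs 5′ to 3′ from 250 bases before to 50 bases after the start in RefSeq (GRCm38.p6), which held all 3 genes. They lie at chr1:87183064-87183363 for Prss56, chrX:139800558-139800857 for Cldn2 and chr1:55930991-55931290 for 9130227L01Rik, each on the forward strand. Capitals mark the matches to 6 motifs searched on both strands:
Prss56: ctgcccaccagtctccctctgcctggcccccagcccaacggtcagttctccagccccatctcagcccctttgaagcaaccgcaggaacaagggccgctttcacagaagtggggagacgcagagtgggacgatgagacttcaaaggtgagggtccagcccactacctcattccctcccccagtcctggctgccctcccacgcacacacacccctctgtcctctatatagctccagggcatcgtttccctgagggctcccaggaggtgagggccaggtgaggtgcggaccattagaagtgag
Cldn2: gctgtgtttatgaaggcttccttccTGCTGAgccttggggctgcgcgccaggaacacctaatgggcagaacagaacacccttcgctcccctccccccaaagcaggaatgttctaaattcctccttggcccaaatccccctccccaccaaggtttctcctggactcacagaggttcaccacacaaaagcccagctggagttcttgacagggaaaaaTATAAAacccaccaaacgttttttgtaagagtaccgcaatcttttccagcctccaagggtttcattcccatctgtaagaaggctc
9130227L01Rik: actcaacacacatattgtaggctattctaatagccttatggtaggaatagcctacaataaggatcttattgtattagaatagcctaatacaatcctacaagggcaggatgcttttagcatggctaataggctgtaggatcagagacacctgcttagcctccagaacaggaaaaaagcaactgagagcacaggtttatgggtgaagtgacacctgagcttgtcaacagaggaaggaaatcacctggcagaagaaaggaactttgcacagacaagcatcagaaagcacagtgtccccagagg

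The motifs were TAATCC and TGCTGA, short forms of sites known for photoreceptor factors, the homeobox site TAATTA, the AP-1 type site TGANTCA, the nuclear receptor half-site AGGTCA and the TATA box TATAAA. These letters do not overlap within the matches found. Among the 3 promoters, matches were found in that of Cldn2 alone. TGCTGA begins 225 bases before its start, and 19.5% of 32851 mouse promoters of the same length hold that motif. TATAAA begins 35 bases before the start, and 13.6% of promoters hold it. TAATCC is held by 7.06% of promoters, TAATTA by 5.29%, TGANTCA by 7.81% and AGGTCA by 16.3%, and none of these letters are in the 3 windows. Base composition differed between the 3 windows. G and C made up 61.7% of the Prss56 window, 51.3% of the Cldn2 window and 43.7% of the 9130227L01Rik window, beside a median of 52.7% over all promoters. The Prss56 window holds 8 CG dinucleotides, that of Cldn2 5 and that of 9130227L01Rik 0, and the median promoter 7.

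Total counts lay between 15205930 and 22856922 per library, and 3 counts, the limit that a count of 0 allows, corresponded to 0.131 to 0.213 CPM. CPM is the count scaled to the library total after TMM adjustment. Control 1 stood apart from the other 5 libraries in the transcripts of the sex chromosomes. Its Xist count was 77778 against 25 to 188 elsewhere, and its summed count of Y-linked genes was 11 against 6532 to 12858. Since Cldn2 is X-linked and the group has 2 libraries, the values that rest on control are also given without control 1. The tissue label was met, with 16 rod genes summing to between 51790 and 123600 CPM in each library. The paper calls the replicates biological and the labels do not say what separates them, so the errors below measure the spread between these libraries. Counting intervals cover counting error only, as PCR copies cannot be told from separate molecules.

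After light each of the 3 genes stood between 4.36-fold and 4.65-fold below control. This contrast chose them, and its values are given as a description without a test. Cldn2 and 9130227L01Rik also passed the filter on low counts through the control libraries alone. Prss56 stood at 9.38 CPM in control 1 and 5.07 CPM in control 2, from 132 and 72 counts. After light it stood at 1.87 CPM in light 1 and 1.33 CPM in light 2, from 32 and 28 counts. Both light libraries thus lay below both controls, and the controls differed from each other more than the light libraries did. The means were 7.23 ± 3.05 CPM in control and 1.60 ± 0.382 CPM after light (SD, n = 2 each), and the fitted log2 fold change was -2.17 (SE 0.408, 95% interval -3.07 to -1.28), a 4.51-fold fall.

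Cldn2 was the rarest of the 3 after light. It held 13 counts in control 1 and 23 in control 2, or 0.924 and 1.62 CPM. In light 1 it held 3 counts, or 0.175 CPM with an exact Poisson 95% interval of 0.0361 to 0.512 CPM, and in light 2 it held 8 counts, or 0.380 CPM with an interval of 0.164 to 0.748 CPM. The groups did not overlap, but the intervals of both light libraries reached into that of control 1, which ran from 0.492 to 1.58 CPM. Mean levels were 1.27 ± 0.492 CPM in control and 0.278 ± 0.145 CPM after light (SD, n = 2 each). The log2 fold change was -2.13 (SE 0.587, 95% interval -3.42 to -0.83), a 4.36-fold fall.

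The noncoding gene 9130227L01Rik had the closest replicates. It held 23 counts in each control, which gave 1.63 ± 0.0108 CPM (SD, n = 2). Light 1 held 7 counts and light 2 held 6, or 0.409 and 0.285 CPM, with a mean of 0.347 ± 0.0877 CPM (SD, n = 2). The controls lay closer together than counting error alone would place them, since the exact Poisson 95% interval of 23 counts runs from 14.6 to 34.5 counts. Its log2 fold change was -2.22 (SE 0.4998, 95% interval -3.32 to -1.12), a 4.65-fold fall.

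**Figure D1:**
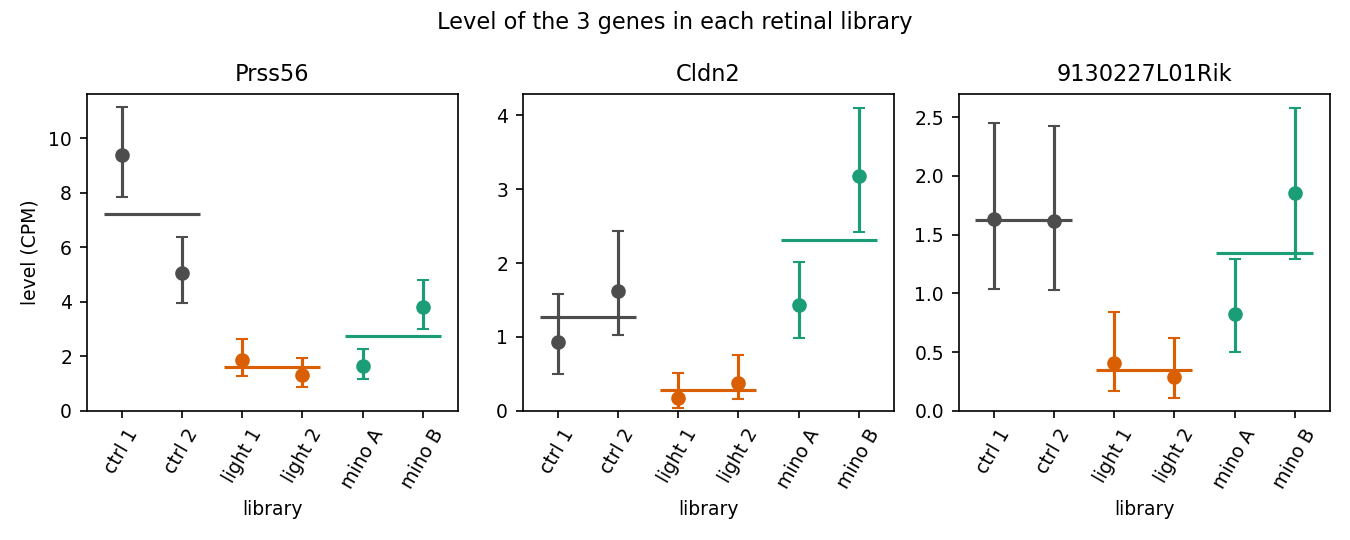
Level of Prss56, Cldn2 and 9130227L01Rik (CPM, linear axis from 0) in the 2 control (ctrl), 2 light and 2 minocycline (mino) libraries. Points are single libraries with exact Poisson 95% counting intervals, horizontal lines are group means, and for each gene both light libraries lie below both controls.

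A gene was called when it changed by 2 or more on the log2 scale with an adjusted p under 0.05. All 3 genes were called lower, which the choice fixes, beside 0.0279% of the 14349 genes tested between light and control. Calls in the other direction were far more frequent, 415 higher against 4 lower. The paper, with DESeq2 and the same log2 cutoff, reported induced genes after light and none that fell. The pattern of both light libraries below both controls was common, being met by 30.3% of tested genes. Counted by size alone, 7 genes had a log2 fold change of -2 or less, and 9130227L01Rik ranked 4, Prss56 6 and Cldn2 7 among them. The other called gene was Mir96 at -2.35, a microRNA gene known from photoreceptors and hair cells. The remaining 3, Xist at -8.77 and the activity-dependent genes Fosb at -2.41 and Arc at -2.19, missed the adjusted threshold. Just outside the cutoff lay Mir182, neighbour of Mir96 in one microRNA cluster, at -1.81, the angiotensin receptor gene Agtr1a at -1.77, the antisense RNA gene Dio3os at -1.60, the stress kinase-like gene Trib3 at -1.56 and 1600014C23Rik at -1.46. The interval of each of the 3 genes covers these values, so their place on the far side of the cutoff is not separated from them by the error.

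**Figure D2:**
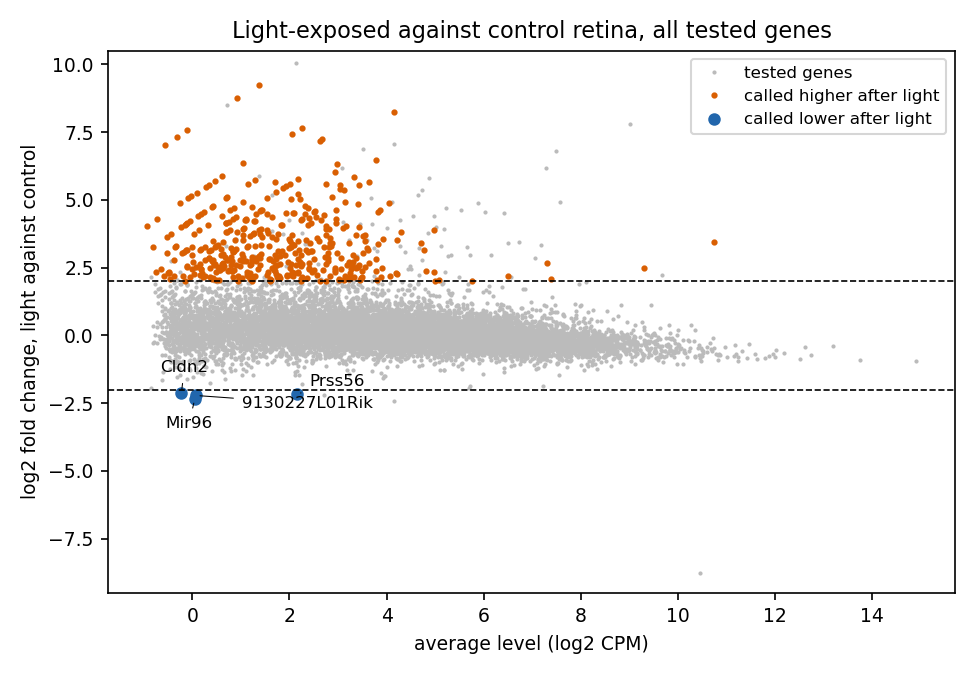
Log2 fold change of light against control (vertical axis) by average level in log2 CPM (horizontal axis) for the 14349 genes tested, with dashed lines at 2 and -2. The 3 genes and Mir96 are the 4 called lower, and all but Prss56 lie at the low end of the level axis.

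Levels between genes were compared per kilobase of exon (RPKM). In control the order was Prss56 at 3.32 ± 1.40 RPKM, 9130227L01Rik at 0.694 ± 0.0046 RPKM and Cldn2 at 0.383 ± 0.148 RPKM (SD, n = 2 each). No control library of one gene overlapped that of its neighbour in this order. After light the order was the same, with Prss56 at 0.734 ± 0.175, 9130227L01Rik at 0.148 ± 0.0374 and Cldn2 at 0.0835 ± 0.0435 RPKM. The light libraries of the lower pair came close, the lowest value of 9130227L01Rik being 0.122 RPKM and the highest of Cldn2 0.114 RPKM. With minocycline Cldn2, at 0.694 ± 0.371 RPKM, and 9130227L01Rik, at 0.572 ± 0.310 RPKM, did not differ beyond their spread, and the 0.759 RPKM of Prss56 in minocycline A also lay within the range of both. None of the 3 is an abundant transcript. On the CPM scale 28.5% of tested genes had a lower control level than Prss56, 11.8% a lower one than 9130227L01Rik and 9.55% a lower one than Cldn2.

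With minocycline the 3 genes stood at different distances from control. The minocycline comparisons below share the light or the control libraries on which the genes were chosen. Their p-values are therefore not independent of that choice, and a high value against light is favoured by it. Against light, Cldn2 and 9130227L01Rik passed the filter on low counts through the minocycline libraries alone, so their folds and p-values there are a description. Cldn2 held 33 counts in minocycline A and 60 in minocycline B, or 1.44 and 3.18 CPM, with a mean of 2.31 ± 1.23 CPM (SD, n = 2). Minocycline A lay between the controls and minocycline B above both. Against light the log2 fold change was 3.01 (SE 0.627, 95% interval 1.53 to 4.48), an 8.03-fold difference, yet the adjusted p of edgeR's quasi-likelihood test was 0.0741 and missed the threshold. Its unadjusted p was 0.00182, and by size it ranked 83 of 14750 genes. Against control the log2 fold change was 0.89 (SE 0.510, 95% interval -0.27 to 2.04, adjusted p of edgeR 0.742), and the groups overlapped.

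9130227L01Rik held 19 counts in minocycline A and 35 in minocycline B, or 0.827 and 1.85 CPM, with a mean of 1.34 ± 0.727 CPM (SD, n = 2). Minocycline A lay between the light and the control libraries, and minocycline B above both controls. The log2 fold change against light was 1.95 (SE 0.594, 95% interval 0.56 to 3.35), with an adjusted p of 0.131 in edgeR's test. Against control it was -0.25 (SE 0.475, 95% interval -1.33 to 0.83, adjusted p of edgeR 0.875).

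Prss56 stayed low in one minocycline library. It held 38 counts in minocycline A and 72 in minocycline B, or 1.65 and 3.82 CPM, with a mean of 2.73 ± 1.53 CPM (SD, n = 2). Minocycline A lay between the 2 light libraries, and minocycline B lay above both of them and below both controls. The log2 fold change against light was 0.79 (SE 0.501, 95% interval -0.39 to 1.97, adjusted p of edgeR 0.418). Against control it was -1.37 (SE 0.471, 95% interval -2.45 to -0.28). That interval, which takes no account of the other genes tested, lies below 0, while the adjusted p of edgeR's test was 0.533. Without minocycline B the log2 fold change against control was -2.12 with an adjusted p of 0.000509 in edgeR's test, in which the 2 controls alone supply the spread and minocycline A is assumed to vary like them, so it says nothing of the group.

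Of the 3 genes 0 were called higher with minocycline against light, where 0.0136% of 14750 genes were, and 3117 genes had an unadjusted p under 0.05. DESeq2's Wald test called 106 genes higher in that comparison, Cldn2 among them with an adjusted p of 0.0183. Both minocycline libraries lay above both light libraries for Cldn2 and 9130227L01Rik but not for Prss56, a pattern met by 26.1% of genes. Against control 0 of the 3 were called in either direction, beside 0.134% of 14181 genes. There the 2 groups did not overlap for Prss56 alone among the 3, and for 39.9% of all genes.

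The return was expressed as the share of the distance from the light mean to the control mean, on the log2 CPM scale, that the minocycline mean had covered. It was 31.2% for Prss56, 81.6% for 9130227L01Rik and 141% for Cldn2. By library, Prss56 covered 3.10% in minocycline A and 59.2% in minocycline B. For 9130227L01Rik the values were 54.1% and 109%, and for Cldn2 111% and 171%. Minocycline B gave the higher value for each gene, and the SD between the 2 libraries was 38.9 to 41.9 percentage points. The values of Prss56 and 9130227L01Rik overlapped, and those of 9130227L01Rik and Cldn2 came within a few points of each other. Within either library the order of the 3 genes was the same. Without control 1 the return was 39.7% for Prss56, 81.8% for 9130227L01Rik and 117% for Cldn2, and the log2 fold changes of minocycline against control were -0.86, -0.25 and 0.53. On the linear CPM scale the return was 20.2%, 77.6% and 204%. As background, the median return of the 56 genes that passed the adjusted threshold and were at -1 or lower after light on the log2 scale was 78.2%, with quartiles of 67.0% and 88.9%. Among these 56, the 3 genes included, 1 gene returned less than Prss56, 0 returned more than Cldn2 and 21 more than 9130227L01Rik. Over all 545 genes that passed the adjusted threshold as lower, the median return was 69.5%, with quartiles of 53.9% and 84.5%. Of these 545, 37 returned less than Prss56, 2 more than Cldn2 and 160 more than 9130227L01Rik. The return shares the libraries that chose the genes, and its order is a description.

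**Figure D3:**
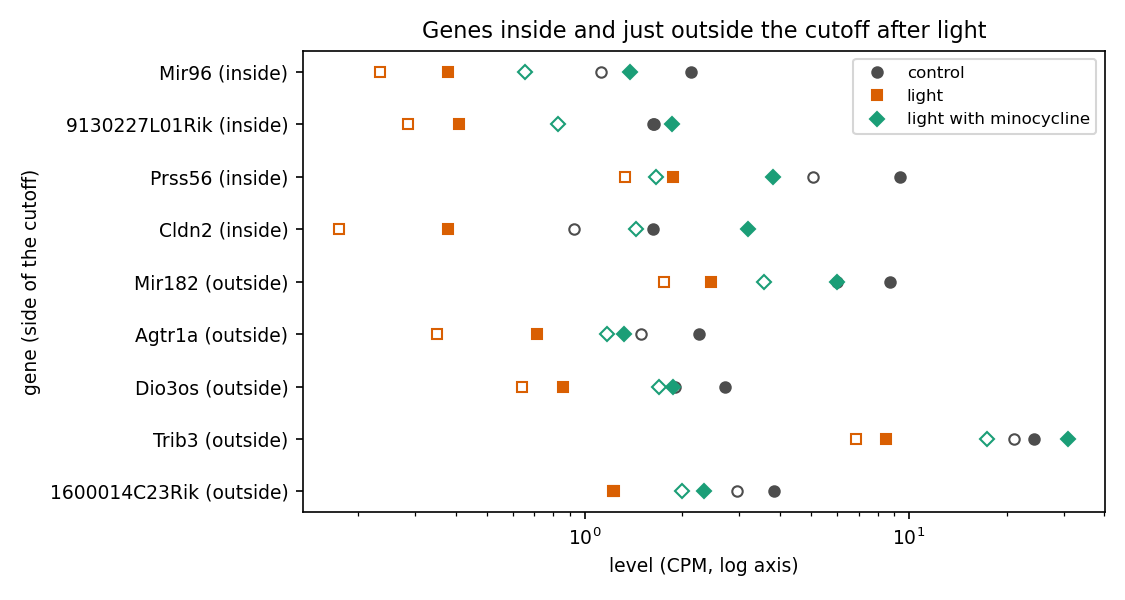
Level (CPM, log axis) of the 4 genes called lower after light and the 5 just outside the cutoff. Open and filled symbols are the lower and the higher library of each group, and Prss56 is the gene inside the cutoff whose minocycline libraries both lie below both controls.

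Several choices bear on the calls. With library totals in place of TMM, the median over all genes between light and control moved to 0.238 on the log2 scale, and the log2 fold changes were -1.94 for Prss56, -1.89 for Cldn2 and -1.99 for 9130227L01Rik, so that none was called. DESeq2's Wald test called 1 of the 3, Prss56, and a single fit of all 6 libraries called the others but not Cldn2. Without control 1, the Xist-rich library, the log2 fold change was -1.67 for Prss56, -2.49 for Cldn2 and -2.22 for 9130227L01Rik, and none of the 3 was called. Leaving out control 2 or light 2 also ended all 3 calls. In each of these fits 1 arm is a single library and the other arm alone supplies the spread. Without control 2 the log2 fold changes were -2.56 for Prss56, -1.68 for Cldn2 and -2.23 for 9130227L01Rik, and without light 2 they were -1.94, -2.80 and -1.97. Leaving out light 1 ended the call of Cldn2, which was then at -1.72. The direction was lower in each of these fits, which the choice of the genes on this contrast all but fixes.

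No neighbour of the genes passed the test after light. The neighbours of Prss56, Ecel1 and Chrnd, held at most 5 counts in any library, so no level can be compared. Of the neighbours of Cldn2, Ripply1 had 0 counts, and Morc4, 10.2 kb away, had a log2 fold change after light of 0.62 with an adjusted p of 0.331 in edgeR's test. Plcl1, 177 kb from 9130227L01Rik, was at 0.62 after light (adjusted p of edgeR 0.0722), and Hsfy2 on its other side had 0 counts.

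Prss56 was set beside the markers of its cell of origin. Of 13 Müller glia genes 0 were called after light, near the 2.89% called higher and 0.0279% called lower over all tested genes. Of the 13, 12 had a log2 fold change above 0, with a median of 0.72 beside 0.00253 over all tested genes. The glutamate transporter gene Slc1a3 rose by 1.13 and the filament gene Vim by 1.71 on the log2 scale, with adjusted p-values of 0.0124 and 0.0197 in edgeR's test, a threshold that 7.52% of all tested genes passed as higher. The summed level of the list was 3577 and 2535 CPM in control, 3972 and 4593 CPM after light, and 4399 and 3331 CPM with minocycline. Prss56 thus lay on the other side of control from most of the list after light. Control 1 had more of both Prss56 and the list than control 2, whereas minocycline B had more Prss56 and less of the list than minocycline A. In bulk tissue fewer cells of a type and less RNA per cell cannot be told apart.

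Eye size genes were the other list fixed for Prss56. Of 14 listed genes 10 were tested, and Prss56 was the 1 called, by its choice, beside 0.0279% of all tested genes called lower. The median log2 fold change of the 10 was -0.12. Mfrp and C1qtnf5, whose annotated genes share an end on chromosome 9 and overlap on the same strand, are listed at 0 in each library, and Best1 at 0 or 1. Egr1, a transcription factor gene that responds to neuronal activity and to signals of eye growth, was at -1.47 with an adjusted p of 0.353 in edgeR's test. Its counts were 5730 and 2024 in control, 1082 and 2835 after light, and 3379 and 5764 with minocycline. In CPM both light libraries lay below the libraries of either other group. Tmem98 was at 0.67 and Crb1 at -0.21, neither past the threshold.

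Among the serine protease genes named Prss, 38 were in the table, 17 held more than 3 counts in some library and 7 were tested between light and control. Prss56 was called by its choice, and 0 of the others had an adjusted p under 0.05, a threshold passed by 7.52% of all tested genes as higher and 3.8% as lower. Prss23, a protease gene of many tissues, was at 0.93 with an adjusted p of 0.0626 in edgeR's test, and Prss36 was at -0.60. The median of the 7 was 0.03. Per kilobase of exon, Prss56 had the highest mean level of these 7 in control, 3.32 RPKM against 2.90 RPKM for Prss38 and 2.45 RPKM for Prss36, and the 2.33 RPKM of Prss56 in control 2 lay below both of these means. Prss46, a gene best known from the testis, was outside the tested set, with 0 counts in both controls and both minocycline libraries, 4 in light 1 and 23 in light 2.

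Cldn2 was likewise set beside its family. The table had 25 claudin genes, of which 15 held more than 3 counts in a library and 8 were tested between light and control. Cldn2 was the 1 called, which its choice fixes, beside 0.0279% of all tested genes called lower. The median of the 8, Cldn2 included, was -0.23. Cldn12, the most highly expressed of those with a length at 19.2 RPKM in control, was at 0.35, and the endothelial Cldn5 was at -0.20. With minocycline against light, 0 of 10 claudins tested were called, near the background of 0.0136% called higher. The epithelial Cldn7 was then at 1.82 with an adjusted p of 0.0892 in edgeR's test. Cldn19, a claudin of the pigment epithelium, held 7 and 5 counts in control, 8 and 15 after light and 25 and 86 with minocycline. The epithelial Cldn4 held 0 counts in both controls, 1 and 4 after light and 46 and 35 with minocycline. Both passed the filter on low counts through the minocycline libraries alone, so no fold or test is given for them. Cldn2 did so too against light, and its values there are given as a description.

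**Figure D4:**
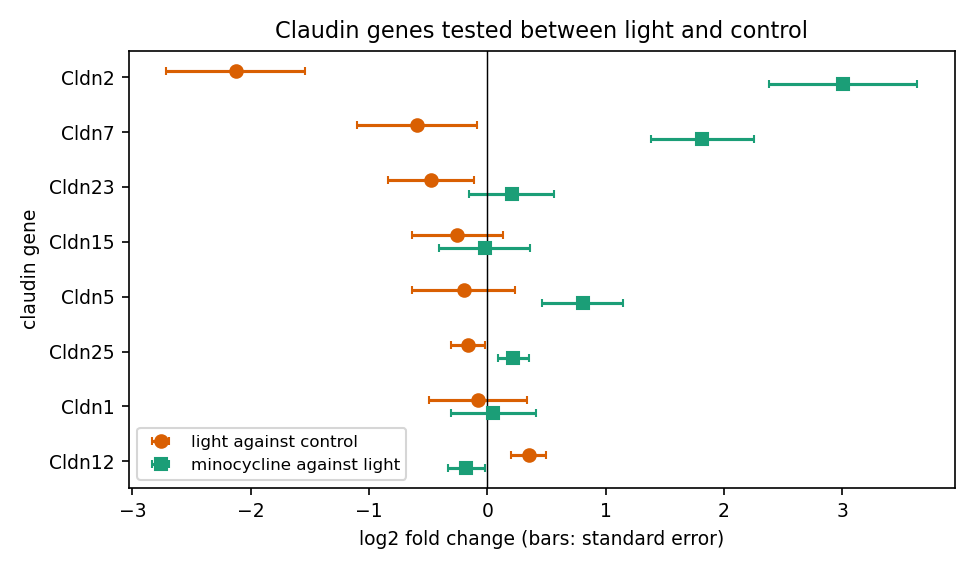
Log2 fold changes (horizontal axis, bars are standard errors) of the 8 claudin genes tested between light and control, for light against control (circles) and minocycline against light (squares). Cldn2 has the lowest value after light at -2.13 and the highest of these 8 with minocycline at 3.01.

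Of 15 partners of claudins in the tight junction 0 were called and 0 passed the adjusted threshold as lower after light, beside 0.0279% and 3.8% of all tested genes, so that counts of 0 are near the background. Their median was -0.19 after light and 0.01 with minocycline against light. The junction scaffold gene Cgnl1 rose by 1.08 after light, with an adjusted p of 0.0429 in edgeR's test. Tjp1, which encodes the scaffold ZO-1, was at -0.28 and the occludin gene Ocln at 0.02, neither past the threshold.

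Epithelia that can carry Cldn2 gave mixed values. Of 12 tested genes of a choroid plexus type list, the median after light was 0.01. The water channel gene Aqp1 fell by 1.07, from 4086 and 2782 counts to 2316 and 2024, with an adjusted p of 0.0251 in edgeR's test, and it was at 1.00 with minocycline against light with an adjusted p of 0.0805. The folate receptor gene Folr1 rose by 1.13 after light, with an adjusted p of 0.0352 in edgeR's test. Ttr, the transthyretin gene that defines the list and is also counted in the pigment epithelium list, was at -0.03. The pigment epithelium list had a median of -0.56 over 10 genes, and Trpm3, which rose by 0.64 (adjusted p of edgeR 0.0341), was the 1 past the threshold. Counts of 1 or 2 past it in lists of 10 and 12 are near the 7.52% higher and 3.8% lower over all tested genes. The summed level of the pigment epithelium list was 297 CPM in control 1 and 539 CPM in control 2, 359 and 474 CPM after light, and 281 and 360 CPM with minocycline. In each group the library with more of it, which was control 2, light 2 and minocycline B, also had more Cldn2. The part of these tissues in the Cldn2 values was not tested.

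By mean level, most markers of other tissues of the eye stood higher in the minocycline than in the light libraries, while those of the lens did not. The summed level of 21 such genes was 32.5 and 96.9 CPM in control, 190 and 71.9 CPM after light, 578 CPM in minocycline A and 2053 CPM in minocycline B. Of 20 tested with minocycline against light, 0 were called or passed the adjusted threshold, near the 0.0136% called higher over all tested genes. Their median log2 fold change was 4.502, and 3 of them lay below 0. The 3 were the lens genes Cryaa, Cryba1 and Crygs, highest in light 1, where Cryaa held 1863 counts against 1 in light 2, 237 in minocycline A and 20 in minocycline B. Genes of the corneal surface, pigment cells, smooth muscle and stroma made up the others, as with Krt12 at 1798 and 2405 counts and Tyrp1 at 1555 and 5855 counts in minocycline A and B. Minocycline B was the library with the higher sum of these markers and with more of Cldn2, 9130227L01Rik and Prss56. The part of this tissue in the return of the 3 genes was not tested.

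Rod genes shared the direction of the 3 genes. All 16 were below 0 after light, with a median of -0.82 and a lowest value of -0.96 for Nrl, the transcription factor gene of rods, and 3 of them passed the adjusted threshold as lower, which 3.8% of all tested genes did. The median with minocycline against light was 0.72, and against control -0.003. Their summed level was 123600 and 97510 CPM in control, 72610 and 51790 CPM after light, and 103500 and 113900 CPM with minocycline. In size, the rod values after light lay between -0.41 and -0.96, and the 3 genes, chosen for the size of their falls in this contrast, are not compared with them by a test.

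Genes of microglia and reactive glia lay above control where the 3 genes lay below it. Of all tested genes 415, or 2.89%, were called higher after light. Of 12 microglia genes 3 were called higher, with a median of 4.23, and the summed level was 39.2 and 47.8 CPM in control, 374 and 1189 CPM after light, and 88.4 and 38.1 CPM with minocycline. Of 11 reactive glia genes 5 were called higher after light, with a median of 1.98. Prss56 and 9130227L01Rik were lower in light 2, the library with more microglia markers, than in light 1, whereas Cldn2 was lower in light 1, with counting intervals that overlap in each case. Cone genes had a median of 0.25, bipolar genes 0.54, amacrine and ganglion cell genes 0.20 and vessel genes 0.32 after light.

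**Figure D5:**
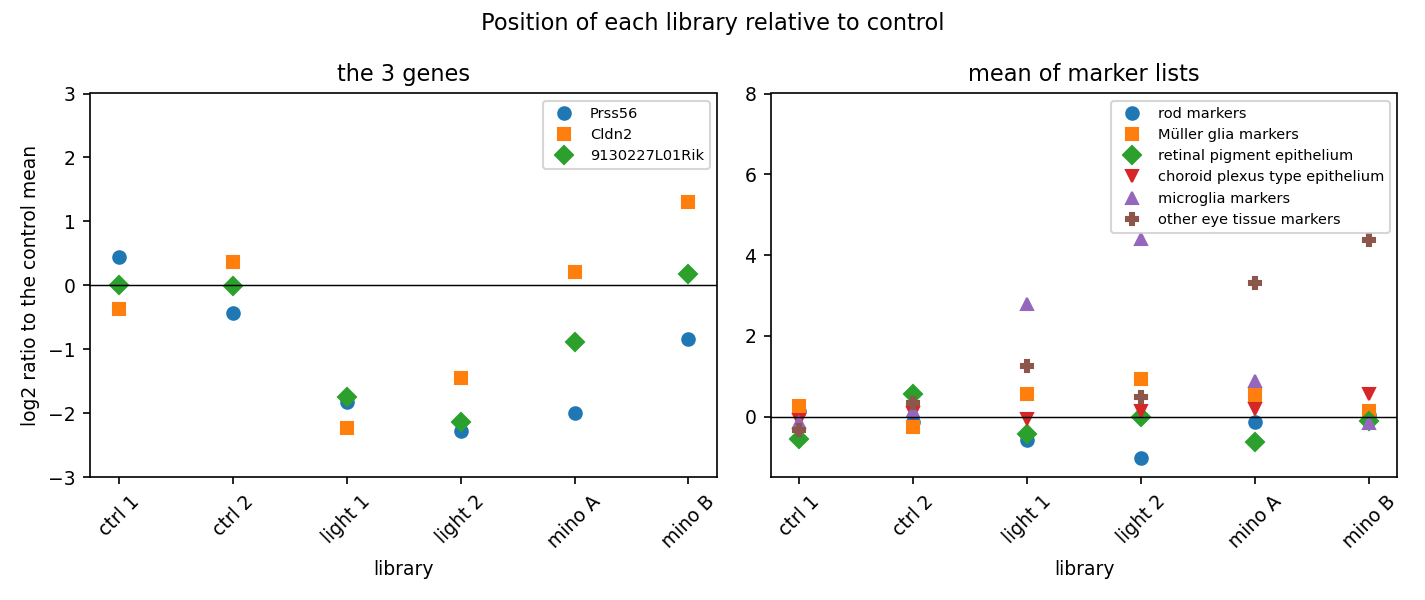
Log2 ratio of each library to the control mean for the 3 genes (left) and as the mean of 6 marker lists (right), with libraries on the horizontal axis and different vertical scales. The 3 genes are low in both light libraries and spread out with minocycline, and the markers of other eye tissues are highest in minocycline A and B.

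The genes were compared with each other and with all genes of at least 1 CPM on average over the 6 libraries. As a description over 6 libraries that fall into 3 groups, Pearson's r of log2 CPM was 0.837 between Prss56 and 9130227L01Rik, 0.840 between Cldn2 and 9130227L01Rik and 0.447 between Prss56 and Cldn2. Among 13701 genes, patterns most like that of Prss56 included those of Gatad2b, which encodes a subunit of a chromatin remodelling complex (r = 0.998), the splicing factor gene U2af1 (0.992), Sh3gl1 (0.990) and Foxn2 (0.989). For Cldn2 they were Tbc1d23 (0.984), the adiponectin receptor gene Adipor2 (0.980), the kinase gene Sik1 (0.979), Pik3cb (0.976) and Alkbh2 (0.971). For 9130227L01Rik they were E130308A19Rik (0.999), Plekha8 (0.997), the apoptosis inhibitor gene Birc2 (0.997), Phf17 (0.997) and Cpt1a, which encodes an enzyme of fatty acid import into mitochondria (0.996). The likeness is of shape and not of size, as Sik1 had a log2 fold change of -0.99 after light, Plekha8 of -0.86 and Cpt1a of -0.69. With ranks in place of values, ties widened the 5 most alike to 54 genes for Prss56, 79 for Cldn2 and 91 for 9130227L01Rik, and these held 3, 5 and 1 of the 5 chosen by r.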

How the data were processed

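Retinal mRNA was sequenced in 6 libraries, 2 per group. The authors prepared stranded libraries, aligned reads to mm10 (GRCm38) with STAR and deposited counts per gene, raw whole numbers without scaling for 23420 genes. The versions of STAR and DESeq2, the gene annotation and the use of strand are not given in the sources used here. The data statement calls the values normalized, which they are not.

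Groups came from the labels. Each pair of groups was fitted on its own in R 4.3.3 by edgeR 4.0.16, with filterByExpr, TMM, the robust quasi-likelihood F test and Benjamini-Hochberg adjustment over every gene tested. Called genes changed by 2 or more on the log2 scale at an adjusted p under 0.05. Log2 CPM used a prior count of 2, the SE came from the F statistic, and intervals from the t quantile at the fit's degrees of freedom. The fits were tested on simulated data. GENCODE M21 gave positions and exon lengths. Value columns left out numbered 0.

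The genes, the lists and the rule for named genes (the 5 just outside the cutoff, those at -2 or less, the 5 most alike by Pearson's r, list members) were chosen with earlier results of these data known. The alternatives were other scalings, no filter, DESeq2 1.42.0, 1 fit of all 6 libraries, no robust step, the replicate block, a prior count of 0.5, the CPM scale, and each library left out. The replicate numbers did not pair the libraries (r = -0.00794 between the deviations of control 1 and light 1 over 14349 genes). Lists were described by counts and medians and not tested. Of the genes the rule names, 1 is not reported here. Proteins were not printed.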

Additional observations from a re-analysis of the deposited data

How the results depend on the processing

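Depth limits Cldn2 and 9130227L01Rik most, with 3 to 8 counts in each light library, and groups of 2 rest on single libraries. The direction after light was lower for the 3 genes in every fit listed in the methods. Their choice on this contrast all but fixes that, so it is no support. Genes called lower after light numbered 4, against 1 with library totals, 2 with DESeq2's Wald test, 5 with the replicate block, and 0 to 8 with each library left out (0 without control 1 or light 2, with 4233 and 1870 genes at an unadjusted p under 0.05 in edgeR). Genes called higher numbered 415. Without control 2, 4 genes were called, with 0 of the 3 among them. Genes called higher with minocycline against light numbered 2, against 0 with DESeq2 size factors, 0 with library totals (3135 and 3452 genes at an unadjusted p under 0.05, both by edgeR), 72 with no filter, 106 with DESeq2's Wald test, 63 with all 6 libraries in 1 fit, 5 without the robust step, and 6 to 112 with each library left out. Calls with minocycline against control numbered 19, against 97 with no filter, 101 with DESeq2's Wald test, 0 with all 6 libraries in 1 edgeR fit (1248 at an unadjusted p under 0.05), and 3 to 278 with each library left out. Cldn2 was called higher against light with no filter (adjusted p 0.0203) and with all 6 libraries in 1 fit (0.0430), both by edgeR. It also passed without minocycline A (0.0463), where minocycline B stands alone and is assumed to vary like the light libraries, so this says nothing of the group. 9130227L01Rik turned to 0.22 against control without minocycline A and was at -0.97 without minocycline B. On the CPM scale the return was 204% for Cldn2 and 20.2% for Prss56. With each library left out, the return ran from 3.29% to 60.9% for Prss56, 111% to 176% for Cldn2 and 54.1% to 111% for 9130227L01Rik. The cause of these shifts was not tested.

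The replicate block moved 0 calls of the 3 genes. With minocycline, no paired analysis was possible because these columns bear 1 shared header.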
